A study of Mus musculus with 6 samples.

Results

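The IGF1 axis and its binding proteins were examined in mouse embryo fibroblasts (MEFs) as 9 genes: Igf1, Igf1r, Insr, Igfbp2, Igfbp3, Igfbp4, Igfbp5, Igfbp6 and Igfbp7. They were taken by gene name from a deposited table of 55565 genes, and the imprinted Igf2 and Igf2r were not among them. All 9 were found, and all 9 had counts in at least 1 library and entered the test. RNA from 3 wild-type (WT, Mcm8+/+) and 3 Mcm8 knockout (KO, Mcm8-/-) MEF libraries was sequenced. The knockout allele was made with CRISPR-Cas9 in C57BL/6 mice, and the animals used had a mixed C57BL/6J × ICR background. WT and KO embryos both came from matings of Mcm8+/- parents, and their trunks were taken at E13.5 without the head, tail, limbs, heart and liver. Cells of both genotypes were immortalized with an SV40 lentivirus, selected with puromycin and grown in serum, which itself carries IGFs and IGFBPs. The libraries of a genotype are described as biological repeats, but whether they came from separate embryos or cultures is not given in the sources used here, so p-values measure only the spread between these libraries.

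IGF1 is a secreted growth factor that acts through the receptor tyrosine kinase IGF1R, a close relative of the insulin receptor INSR, with which it can form hybrid receptors. Outside the cell most IGF is held by IGF-binding proteins (IGFBPs), which prolong its life, keep it from the receptor or hand it over near the cell surface, and which proteases cut to set IGF free. Inside the cell the receptors signal through IRS adaptors to PI3K, AKT and mTOR and keep FOXO transcription factors out of the nucleus. Fibroblasts are a classic source of IGF1 and of several IGFBPs.

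The libraries held between 12722979 and 21022755 counts. Mcm8, the targeted gene, fell from 14.4 ± 1.99 CPM (counts scaled to a common library size) in WT to 4.26 ± 0.17 in KO (SD, n = 3 each). Fibroblast markers summed to 2905 to 3096 FPKM (read fragments scaled by gene length and library size, so a level per length) in WT and 2931 to 3031 in KO, with 2 of 10 markers higher (Col1a1 and Col3a1) and 4 lower (Pdgfrb, Thy1, Vim and Fap). Sums of other markers differed between the genotypes: 7 mesothelial markers from 3.86 to 4.75 up to 18.0 to 20.7 FPKM, with Msln and Krt19 called higher, Bnc1 lower, Upk3b and Upk1b at 3 or fewer counts in each library and Lrrn4 at 0, and 8 epithelial markers from 0.596 to 0.869 up to 3.63 to 4.30, with Krt8 and Krt18 called and Krt5 and Esrp1 at 0. Msln alone went from 0.938 to 14.6 FPKM and made up most of the mesothelial difference. Cartilage markers (Sox9 and Acan called, of 4; Matn1 at 0) went from 2.72 to 3.19 up to 7.32 to 7.46 FPKM, and neural markers (Tubb3 and Sox2 called, of 5; Sox10 at 0) from 13.3 to 15.2 up to 19.7 to 21.3. Smooth muscle markers (Acta2 called lower, of 5) went from 727 to 816 down to 561 to 587. Acta2 alone went from 751 to 564 FPKM and made up nearly all of the smooth muscle sum. Cnn1, Tagln, Myocd and Myh11 were not called, and their genotypes overlapped. Of the endothelial, blood, skeletal muscle and hepatocyte markers, 5 of each, edgeR and DESeq2 called 0 and limma-voom 1, as did edgeR at an unadjusted p below 0.05: Tek, with 0, 0 and 1 counts in WT and 5, 4 and 3 in KO. Transcripts of both sexes were present in every library, with Xist lower and Ddx3y, Eif2s3y, Uty and Kdm5d higher in KO, so genotype and the sex make-up of the cultures cannot be told apart. The part of these differences in the results below was not tested, and in bulk RNA fewer cells of a type and less RNA per cell cannot be told apart.

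The transcript levels of the axis spanned a wide range, with binding proteins at the top and the ligand near the bottom. By mean FPKM the WT order was Igfbp7 (97.4), Igfbp5 (41.4), Igfbp6 (23.3), Igf1r (11.3), Igfbp3 (5.11), Insr (4.54), Igfbp4 (2.06), Igf1 (1.05) and Igfbp2 (0.111). Each of these differed from the next beyond the range of the 3 libraries, except Igfbp3 and Insr, whose ranges overlapped. In KO the order of mean FPKM was Igfbp7 (91.1), Igfbp5 (61.1), Igfbp6 (44.6), Igf1r (10.6), Igfbp3 (9.99), Igfbp4 (5.09), Insr (4.28), Igf1 (1.09) and Igfbp2 (0.177), with no overlap between neighbours. Igfbp3 thus came to within 1.06 times of Igf1r, and Igfbp4 moved from below Insr to above it. Among 21884 protein-coding genes, Igfbp6 moved in FPKM rank from 2169 to 937, Igfbp5 from 1061 to 633, Igfbp3 from 7035 to 4812 and Igfbp4 from 9287 to 7098. Igfbp7 stood at rank 355 in WT and 372 in KO.

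**Figure D1:**
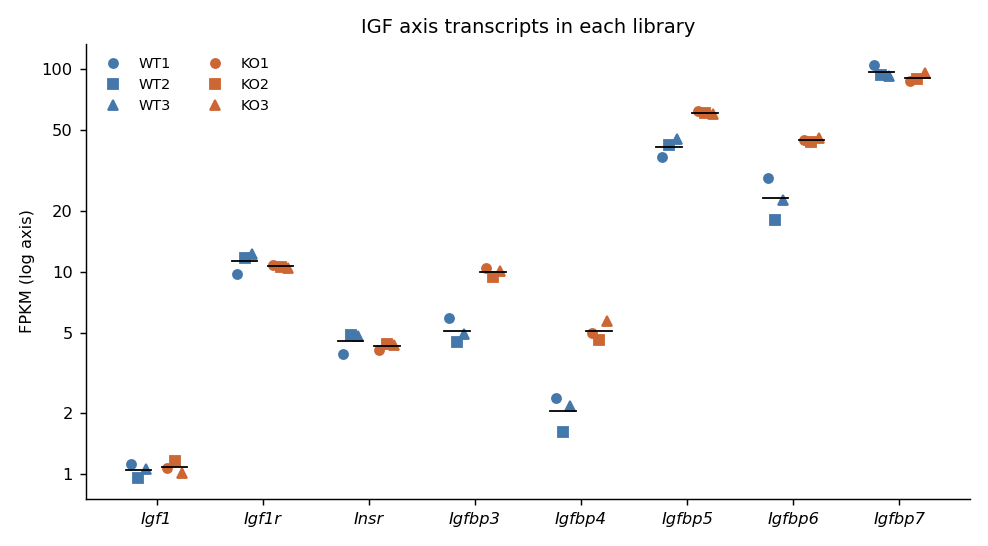
FPKM (log axis) of 8 IGF axis genes in each library, WT in blue and KO in orange, with circles, squares and triangles for libraries 1, 2 and 3 and a black line at each genotype's mean. The 3 KO libraries lie above all 3 WT libraries for Igfbp3, Igfbp4, Igfbp5 and Igfbp6, and the genotypes overlap for Igf1, Igf1r, Insr and Igfbp7; Igfbp2 is left out because 1 WT library is at 0.

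KO and WT were compared to ask which parts of the axis differ in MEFs without MCM8. Of the 9 genes, 4 were higher in KO and 0 lower at an adjusted p below 0.05 (edgeR's quasi-likelihood test with Benjamini-Hochberg adjustment over 26898 genes), all 4 of them binding proteins: Igfbp3, Igfbp4, Igfbp5 and Igfbp6. DESeq2 and limma-voom gave the same counts, and at an unadjusted p below 0.05 edgeR again called 0 members lower. Of all genes tested, 4.6% were called higher and 3.58% lower, and of the 11762 expressed protein-coding genes (a mean of at least 1 CPM) 8.84% and 7.13%. Only Igfbp4 also passed the 2-fold threshold of a differentially expressed gene (DEG), as did 1.73% of all genes in that direction. This count of 1 was 3 without WT1 (Igfbp3 at 1.07, Igfbp4 at 1.39 and Igfbp6 at 1.11), 2 without KO2 (Igfbp3 at 1.02 and Igfbp4) and 0 on log2 FPKM with a pseudocount of 1 and in the test against a 2-fold change. The genotypes did not overlap for the same 4 genes, which held for 21.6% of all genes tested. The median log2 fold change of the 9 genes was 0.56, against 0.01 for all genes tested. That median is the value of Igfbp5. It rests in part on Igfbp2 (0.815, SE 0.91), which had 7 or fewer counts in each library and did not pass the test.

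**Figure D2:**
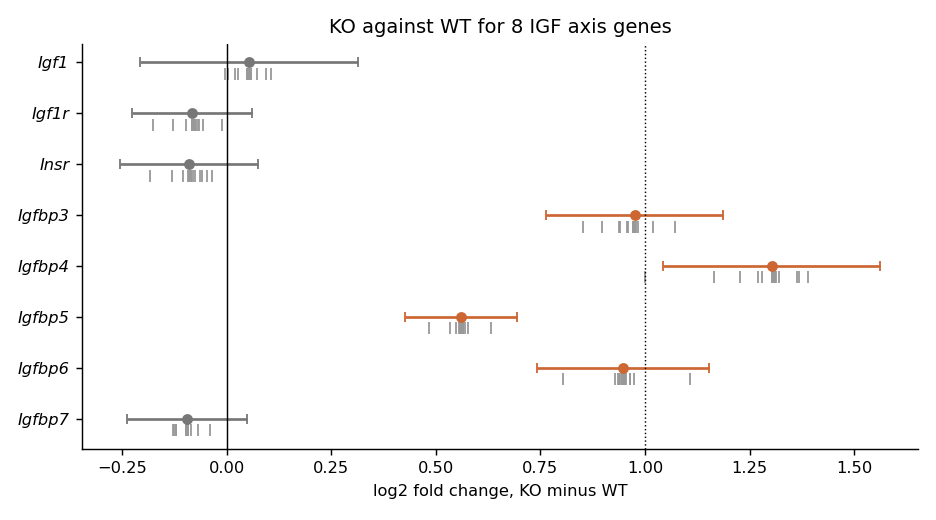
Log2 fold change, KO minus WT, of 8 IGF axis genes with 95% confidence intervals, orange where the adjusted p is below 0.05 and grey otherwise; grey ticks are the values under the other settings tried, and the dotted line marks a 2-fold change. Igfbp4 (1.30), Igfbp3 (0.98), Igfbp6 (0.95) and Igfbp5 (0.56) lie to the right of 0 and the other 4 genes within 0.10 of it.

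The ligand did not pass the test. Igf1 (chr10:87694127-87772904, plus strand, GRCm39) was counted 142, 133 and 198 times across WT1 to WT3 and 228, 193 and 161 times across KO1 to KO3. These came to 11.1, 9.48 and 10.6 CPM in WT and 10.8, 11.6 and 10.1 in KO, so the genotypes overlapped, with KO2 highest and WT2 lowest. The log2 fold change was 0.05 with a standard error (SE) of 0.13 (adjusted p = 0.848), and the 95% confidence interval of the KO to WT ratio ran from 0.867 to 1.24. At about 1 FPKM in both genotypes, Igf1 was the lowest of the axis genes apart from Igfbp2. The insulin genes Ins1 and Ins2 had no count in any library.

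The receptors did not pass the test either. Igf1r (chr7:67602575-67883416, plus strand, GRCm39), which binds IGF1 and IGF2, stood at 164, 197 and 208 CPM across WT1 to WT3 and at 183, 178 and 177 across KO1 to KO3. The 3 KO libraries were close together and lay between WT1, the lowest library, and the other two WT libraries. The log2 fold change of Igf1r was -0.08 (SE 0.07, adjusted p = 0.616), a ratio of 0.944 with an interval of 0.855 to 1.04. Insr (chr8:3172061-3329617, minus strand, GRCm39) had 54.0, 66.7 and 67.1 CPM in WT and 56.8, 60.4 and 60.1 in KO, again with WT1 lowest and the KO libraries between. Its log2 fold change was -0.09 (SE 0.08, adjusted p = 0.621), a ratio of 0.940 with an interval of 0.838 to 1.05. Per length, Igf1r exceeded Insr by a like factor in both genotypes, 2.48 ± 0.06 in WT and 2.49 ± 0.13 in KO, and the receptors summed to 15.8 ± 1.82 FPKM in WT and 14.9 ± 0.06 in KO. Without WT1 the log2 fold change of Igf1r became -0.18 and passed the test (adjusted p = 0.00563).

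The WT libraries differed from one another by gene length, WT1 in one direction and WT2 and WT3 in the other, and the part of this in the receptor values was not tested. Among 1257 expressed protein-coding genes of 10000 or more exon bases, the class of Igf1r (16791 bases) and Insr (13746 bases), the median log2 CPM of WT1 lay 0.14 below the mean of the 6 libraries, while WT2 and WT3 lay 0.09 and 0.06 above it. Among 610 genes below 1500 bases, the class of Igfbp6 (1112 bases) and Igfbp7 (1209 bases), WT1 was 0.16 above that mean and WT2 0.17 below it. The KO libraries stayed within 0.03 of the mean in every class. Among the WT libraries, WT1 was likewise the highest for Igfbp6 and Igfbp7 and the lowest for Igf1r, Insr and Igfbp5 (6006 bases). Igf1 (9904 bases) ran the other way to its class, with WT1 highest and WT2 lowest of the WT libraries. With each library's trend over gene length taken out, a setting chosen once the values were known, the log2 fold changes were -0.13 for Igf1r (adjusted p = 0.174) and -0.13 for Insr (adjusted p = 0.33), and the 4 binding proteins were again called.

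**Figure D3:**
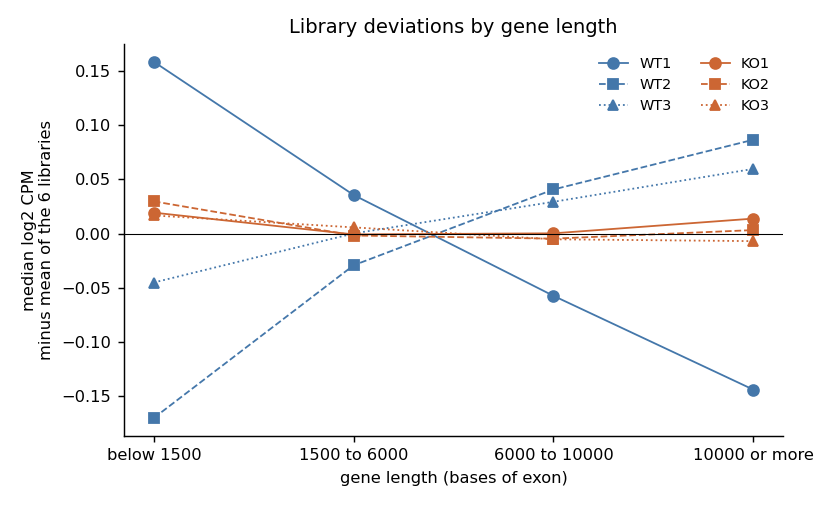
Median log2 CPM of expressed protein-coding genes minus the mean of the 6 libraries (vertical axis) in 4 classes of gene length in exon bases (horizontal axis), one line for each library, WT in blue and KO in orange. WT1 falls from 0.16 in the shortest class to -0.14 in the longest, WT2 rises from -0.17 to 0.09, and the KO lines stay within 0.03 of 0.

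The binding proteins divided into 4 genes that rose and 2 that did not pass. Igfbp4 (chr11:98932070-98945218, plus strand, GRCm39), which encodes a binding protein that mostly holds IGFs away from the receptor until the protease PAPP-A cuts it, was counted 134, 100 and 181 times across WT1 to WT3 and 467, 339 and 405 times across KO1 to KO3. In CPM these were 10.5, 7.13 and 9.71 in WT and 22.04, 20.4 and 25.3 in KO. The lowest KO library was 1.94 times the highest WT library, and WT2 was the lowest of all. Igfbp4 rose by a log2 fold change of 1.30 (SE 0.13, adjusted p = 1.46e-10), which is 2.47-fold with an interval of 2.06 to 2.95. Of 11762 expressed protein-coding genes, 1.65% had a higher log2 fold change.

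Igfbp3 (chr11:7156086-7163923, minus strand, GRCm39), whose product is the main carrier of IGFs in blood, had 235, 198 and 292 counts in WT and 697, 490 and 511 in KO. Its CPM was 18.4, 14.1 and 15.7 in WT and 32.9, 29.5 and 31.9 in KO, and the lowest KO library stood 1.60 times above the highest WT library. The rise was 0.98 on the log2 scale (SE 0.11, adjusted p = 2.06e-09), or 1.97-fold with an interval of 1.70 to 2.28 that holds the 2-fold threshold. Igfbp6 (chr15:102052797-102057946, plus strand, GRCm39), which encodes a binding protein with a preference for IGF2, had 32.2, 20.1 and 25.6 CPM in WT and 49.9, 48.6 and 51.1 in KO. The WT libraries were spread (26.0 ± 6.07) and the KO libraries were not (49.9 ± 1.23), with no overlap and a gap of 1.51 times. Igfbp6 rose by 0.95 (SE 0.10, adjusted p = 2.31e-09), or 1.93-fold with an interval of 1.67 to 2.22.

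Igfbp5 (chr1:72897091-72914043, minus strand, GRCm39) encodes a binding protein that associates with the extracellular matrix. It showed the smallest fold of the 4 at the highest level, with 2839, 3551 and 5099 counts in WT and 7934, 6114 and 5827 in KO. In CPM these were 223, 253 and 274 in WT and 375, 368 and 364 in KO, so that the KO libraries lay within a narrow band 1.33 times or more above the highest WT library. The log2 fold change was 0.56 (SE 0.07, adjusted p = 2.63e-08), or 1.47-fold with an interval of 1.35 to 1.62. With all libraries in the fit, the folds of the 4 genes ran in the reverse order of their FPKM levels, from Igfbp5 to Igfbp4. Igfbp3 and Igfbp6 differed by less than their SE. These 2 genes changed places in some other settings, among them leaving out WT1 (1.07 for Igfbp3, 1.11 for Igfbp6) or KO1 (0.938 and 0.947).

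Igfbp7 and Igfbp2 did not pass the test. Igfbp7 (chr5:77497087-77555888, minus strand, GRCm39), whose product binds IGFs weakly and insulin, was the most abundant binding protein per length (97.4 FPKM in WT) and stood below Igfbp5 in CPM, at 128, 114 and 114 CPM in WT and 107, 109 and 117 in KO. The genotypes overlapped through KO3, and the log2 fold change was -0.10 (SE 0.07, adjusted p = 0.554), a ratio of 0.936 with an interval of 0.847 to 1.03. Igfbp7 shares 85 bases with Polr2b on the other strand, and the strand setting of the counting is not given in the sources used here, so reads from these bases cannot be told apart. Polr2b itself had a log2 fold change of -0.01. Igfbp2 (chr1:72863662-72891633, plus strand, GRCm39), a binding protein abundant in many embryonic tissues, had 6, 2 and 0 counts in WT and 4, 7 and 6 in KO. At this depth no difference was detectable (adjusted p = 0.674), and its level was close to none in both genotypes. Igfbp1, which is mainly a liver product and was not among the 9 genes, had no count in any library.

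The summed transcript level of the 6 binding proteins was higher in KO and its make-up differed. Across WT1 to WT3 the sum was 180.0, 160 and 168 FPKM, and across KO1 to KO3 it was 209.6, 209 and 218, without overlap, and the ratio of the means was 1.25. Igfbp3 to Igfbp6 alone summed to 71.8 ± 4.84 FPKM in WT and 121 ± 1.91 in KO, a ratio of 1.68. Igfbp7 made up 57.5 ± 1.89% of the 6-gene sum in WT and 42.9 ± 1.13% in KO. Igfbp5 supplied 24.6% of the sum in WT and 28.8% in KO, Igfbp6 13.6% and 21.04%, Igfbp3 3.01% and 4.71%, and Igfbp4 1.21% and 2.40%. Per FPKM of Igf1 the sum was 162 ± 5.02 in WT and 196 ± 18.7 in KO, and per FPKM of both receptors it was 10.9 ± 1.956 and 14.2 ± 0.41. These sums are given as a description, with no test, since they add genes already tested.

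**Figure D4:**
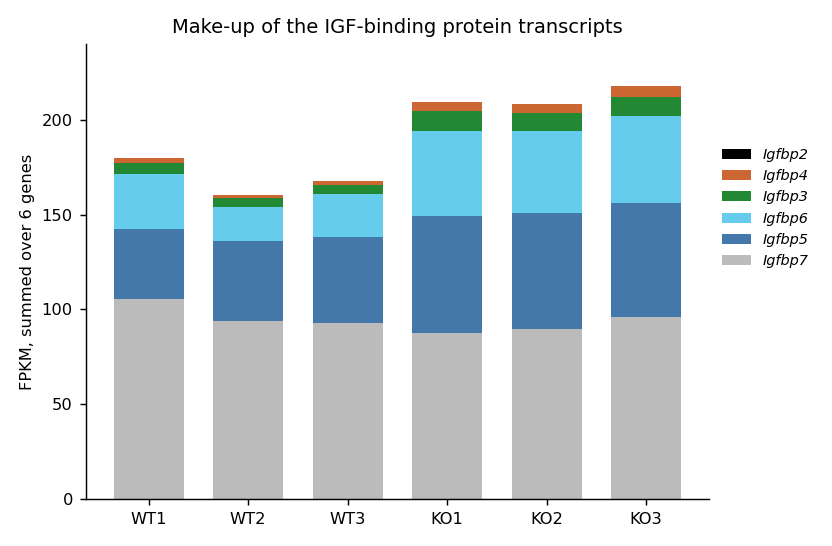
FPKM of the 6 binding protein genes stacked in each library, from 0. The stacks reach 160 to 180 in WT and 209 to 218 in KO; the grey Igfbp7 part is of like height throughout (87.5 to 105.5), while the Igfbp5, Igfbp6, Igfbp3 and Igfbp4 parts are taller in KO, and Igfbp2 is too small to be seen.

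The genes that rose lie at separate places in the genome, and none of their nearest tested neighbours was called higher. Igfbp5 and Igfbp2 face each other tail to tail with 5457 bases between them on chromosome 1, yet Igfbp5 is abundant and Igfbp2 close to absent. Igfbp1 and Igfbp3 form a similar pair on chromosome 11 with 3539 bases between them, and Igfbp1 was at 0. The nearest tested protein-coding genes of Igfbp4 were Top2a, 17.1 kb away with a log2 fold change of 0.05, and Smarce1, with 0.02. Those of Igfbp6 were Soat2 (-0.50, adjusted p = 0.332) and Spryd3 (-0.14, adjusted p = 0.416). Apart from Igfbp5 as the neighbour of Igfbp2, the only nearest neighbour of any member to pass the test was Tns3, 1218 kb from Igfbp3 and lower in KO (-0.20, adjusted p = 0.0461), a call that was lost in 11 of 17 other settings, among them leaving out any 1 library other than WT1.

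The sequence before the start of each gene is shown for the 4 binding proteins that rose and, for contrast, for the abundant Igfbp7 that did not. RefSeq (GRCm38.p6) gave a start for 8 of the 9 genes, and the 250 bases before it are printed 5′ to 3′ on the gene's own strand. Short motifs were searched on both strands. The core promoter motifs were the TATA box, spelled TATAAA here, the GC box, spelled GGGCGG here, and the CCAAT box. The factor motifs were the AP-1 motif, spelled TGANTCA with N for any base, the E-box, spelled CACGTG here, and a FOXO motif, spelled TGTTTAC here. Capitals mark a match in either orientation. The windows, in the GRCm38.p6 build, are chr11:99040994-99041243 (plus) for Igfbp4, chr11:7213924-7214173 (minus) for Igfbp3, chr15:102143936-102144185 (plus) for Igfbp6, chr1:72874866-72875115 (minus) for Igfbp5 and chr5:77408046-77408295 (minus) for Igfbp7.
Igfbp4: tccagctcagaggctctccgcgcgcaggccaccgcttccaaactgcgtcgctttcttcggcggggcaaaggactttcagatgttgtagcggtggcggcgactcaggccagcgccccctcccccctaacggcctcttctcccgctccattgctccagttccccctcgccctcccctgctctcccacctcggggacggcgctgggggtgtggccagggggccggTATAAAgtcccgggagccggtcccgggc
Igfbp3: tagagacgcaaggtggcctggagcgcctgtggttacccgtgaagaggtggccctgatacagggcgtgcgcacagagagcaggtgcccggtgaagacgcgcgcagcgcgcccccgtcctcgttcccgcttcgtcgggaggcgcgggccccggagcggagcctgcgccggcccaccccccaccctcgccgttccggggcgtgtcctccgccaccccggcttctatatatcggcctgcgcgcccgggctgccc
Igfbp6: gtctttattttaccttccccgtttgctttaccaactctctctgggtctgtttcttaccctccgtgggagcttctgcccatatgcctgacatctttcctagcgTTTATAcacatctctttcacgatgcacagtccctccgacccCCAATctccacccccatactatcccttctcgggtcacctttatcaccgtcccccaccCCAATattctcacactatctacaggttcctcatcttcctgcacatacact
Igfbp5: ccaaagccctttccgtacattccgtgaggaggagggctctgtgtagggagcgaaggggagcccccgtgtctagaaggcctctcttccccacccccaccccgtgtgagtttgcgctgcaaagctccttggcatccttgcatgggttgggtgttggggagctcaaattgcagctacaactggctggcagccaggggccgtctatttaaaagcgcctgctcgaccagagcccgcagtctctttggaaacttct
Igfbp7: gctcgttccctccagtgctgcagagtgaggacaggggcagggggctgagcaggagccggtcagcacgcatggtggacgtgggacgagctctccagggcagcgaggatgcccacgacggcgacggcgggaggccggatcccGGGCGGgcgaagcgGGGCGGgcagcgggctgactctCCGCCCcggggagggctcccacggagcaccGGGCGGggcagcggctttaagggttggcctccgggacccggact

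No motif searched was shared by all 4 genes that rose. Igfbp4 held TATAAA from base -28 to -23 before its start, and Igfbp6 held it on the other strand from -148 to -143, a motif found in 12.4% of all 32851 windows of the same length. Igfbp6 also held CCAAT at -107 to -103 and at -50 to -46 (33.8% of all windows), and Igfbp3 and Igfbp5 matched none of the 6. Only the spellings given were searched, so variants of these motifs were not counted. Igfbp7 held GGGCGG at 4 places, the first Igfbp2 start at 3 and Igf1r at 2 (32.7% of all windows), and none of these held TATAAA. Igf1 held CCAAT at -142 to -138. The windows of Igf1 and of the second Igfbp2 start held TGANTCA (6.75% of all windows), and the first Igfbp2 start held CACGTG (6.02%). TGTTTAC (3.17% of all windows) was in none of the members' windows. G and C made up 69.2% of the Igfbp4 window, 73.2% for Igfbp3, 58.8% for Igfbp5, 49.6% for Igfbp6 and 74.0% for Igfbp7, against a median of 52.4% over all windows.

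The profile of Igfbp4, the only DEG of the 9 with all libraries in the fit, was set beside those of 11761 other expressed protein-coding genes over the 6 libraries, by root mean square distance of centred log2 CPM. The nearest were Hgf (0.0649), which encodes hepatocyte growth factor, H2bc4 (0.0841), which encodes a histone H2B, and Jph2 (0.113), which encodes a junctophilin. Igfbp6 came at rank 36 (0.186) and Igfbp3 at rank 44 (0.194), with the same order of WT1 above WT3 above WT2, and Igfbp5 followed at rank 525 (0.421). This order is not particular to these genes. It was also that of the median expressed gene of 1500 to 6000 bases, the class of Igfbp3 and Igfbp4 (0.0356, 0.0001 and -0.0293). The median gene below 1500 bases, the class of Igfbp6, had it too (0.16, -0.05 and -0.17). Igf1, Igfbp7, Igf1r and Insr stood at ranks 4091, 7258, 8150 and 8343. All distances share the same 6 libraries and describe likeness only.

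The genes around the receptors were read from the same fit in 6 lists arranged by role. In the list of other ligands, receptors and carriers, 7 of 10 genes (Ins1, Ins2, Insrr, Igfbp1, Igfbpl1, Igfn1 and Vtn) were at 0 in all libraries, and 0 of the other 3 passed edgeR's test, DESeq2 or limma-voom (1 at an unadjusted p below 0.05). Lrp1, a large endocytic receptor that also binds IGFBP3, was the only one of these above 1 CPM, with 1292, 2000 and 2163 CPM in WT and 2155, 2162 and 2237 in KO. Its value in WT1 stood far below the rest, and its log2 fold change was 0.26 (SE 0.09, adjusted p = 0.0508). It passed the test in 5 of 17 other settings, among them the gene length offset (adjusted p = 9.89e-05), RLE scaling (0.0443) and leaving out WT2 (0.0322) or WT3 (0.0341), and its log2 fold change was 0.07 without WT1. Because few genes were left, the list's median log2 fold change (0.96) rests on Igfals and Cd93, which had few counts.

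Growth hormone induces Igf1 in liver through its receptor, JAK2 and STAT5. Of 7 genes of this input, 2 rose, 1 fell and 4 did not pass (median 0.18), where 8.84% of all expressed protein-coding genes were called higher and 7.13% lower. Socs3, a feedback inhibitor of JAK signalling, rose from 22.2 ± 0.595 to 37.3 ± 2.55 CPM (0.75, SE 0.10, adjusted p = 1.01e-07). Stat5a went from 20.7 ± 0.558 to 26.6 ± 3.21 CPM (0.35, SE 0.11, adjusted p = 0.026). Ghr, the growth hormone receptor, went from 114 ± 6.77 to 93.6 ± 6.08 CPM (-0.28, SE 0.07, adjusted p = 0.0097). The call on Stat5a was lost in 10 of 17 other settings, among them leaving out KO2 (adjusted p = 0.213), KO3, WT2 or WT3. That on Ghr was lost in 8, among them leaving out KO3 (adjusted p = 0.188), KO1, WT2 or WT3.

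Proteases that cut IGFBPs, and the inhibitors of these proteases, included 12 genes, of which 3 rose and 1 fell (median 0.07), beside the same 8.84% and 7.13% of expressed genes. Htra1, a serine protease that cuts IGFBP5 and was the most abundant of these 4, rose from 119 ± 2.83 to 157 ± 3.51 CPM (0.40, SE 0.07, adjusted p = 3.51e-05). Plau, which encodes urokinase, rose from 27.6 ± 1.89 to 38.9 ± 1.59 CPM (0.49, SE 0.09, adjusted p = 0.000155). Pappa, which encodes the protease of IGFBP4, had 17.01, 23.3 and 21.9 CPM in WT and 27.0, 31.7 and 25.9 in KO, without overlap (0.43, SE 0.11, adjusted p = 0.00597). Stc2, an inhibitor of that protease, had 9.80, 10.9 and 15.2 CPM in WT and 7.98, 8.66 and 9.62 in KO (-0.49, SE 0.15, adjusted p = 0.0256). The KO and WT libraries of Stc2 came close, and its call was lost in 12 of 17 other settings, among them leaving out WT3 (adjusted p = 0.451), KO1, KO2 or KO3. The call on Pappa was lost in 5 of 17, with an adjusted p of 0.139 without KO2 and 0.118 without KO1.

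Among transcripts of the genes that carry the signal from the receptors there was no call, and signalling itself was not measured. Of 31 adaptors and components of PI3K, AKT, mTOR and FOXO, from Irs1 to Foxo4, 0 passed edgeR's test, DESeq2 or limma-voom in either direction (3 higher and 3 lower at an unadjusted p below 0.05), and their median log2 fold change was 0.04. Of 14 negative regulators of the receptors and of this cascade, 1 rose and 2 fell (median 0.03), beside 8.84% and 7.13% of expressed genes. Grb14, an adaptor that blocks the insulin receptor, rose from 4.48 ± 0.723 to 8.32 ± 0.300 CPM (0.91, SE 0.17, adjusted p = 0.000113). Deptor, an inhibitor of mTOR, fell from 13.8, 16.1 and 18.1 CPM in WT to 7.74, 7.27 and 8.56 in KO (-1.04, SE 0.14, adjusted p = 9.15e-08). Trib3, an inhibitor of AKT, fell from 107 ± 7.79 to 77.7 ± 3.93 CPM (-0.46, SE 0.08, adjusted p = 1.98e-05). The call on Grb14 was lost in 3 of 17 other settings, among them the tests on log2 FPKM with a pseudocount of 1 (0.41, adjusted p = 0.0948) or 0.1 (adjusted p = 0.12), and that on Deptor in 2, among them log2 FPKM with a pseudocount of 1 (-0.57, adjusted p = 0.0575).

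Genes that FOXO factors are known to activate included 17 genes, among them Insr, of which 4 rose and 1 fell (median -0.06), again beside 8.84% and 7.13% of expressed genes. Sesn3, a stress protein that restrains mTOR complex 1, had 16.1, 23.5 and 21.6 CPM in WT and 32.2, 35.0 and 28.2 in KO (0.63, SE 0.11, adjusted p = 4.59e-05). Bcl6, a transcriptional repressor, rose by 0.60 (SE 0.13, adjusted p = 0.000725), and Bcl2l11, which encodes the apoptosis protein BIM, by 0.51 (SE 0.10, adjusted p = 0.000418). Txnip, a thioredoxin inhibitor, had a log2 fold change of 0.32 (adjusted p = 0.0219), and its call was lost in 8 of 17 other settings, among them leaving out KO3 (adjusted p = 0.168), KO1 or WT2. Fbxo32, which encodes the ubiquitin ligase atrogin-1, fell from 18.7, 17.3 and 14.9 CPM in WT to 9.02, 7.995 and 6.93 in KO (-1.06, SE 0.13, adjusted p = 5.66e-08). The call on Bcl2l11 was lost in 4 of 17 other settings, among them leaving out KO1 (adjusted p = 0.0739). The calls on Sesn3 and Bcl6 were each lost in 3 of 17: the test against a 2-fold change and the tests on log2 FPKM with a pseudocount of 1 (adjusted p = 0.191 and 0.141) or 0.1 (0.164 and 0.106).

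**Figure D5:**
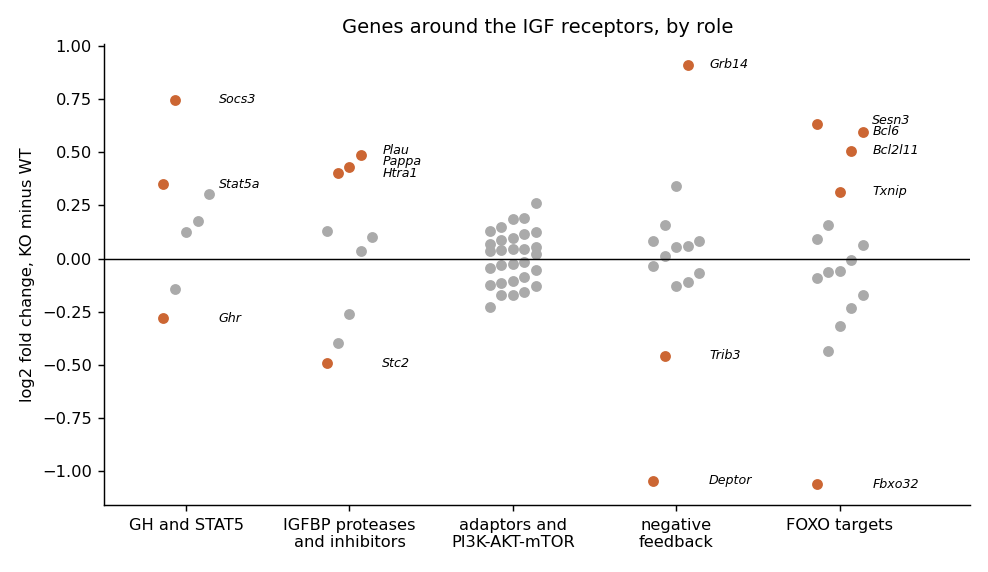
Log2 fold change, KO minus WT, of the 76 entries with a mean of at least 1 CPM in 5 lists of genes around the IGF receptors; orange points passed the test (adjusted p below 0.05) and carry their names, and grey points did not. The 30 adaptors and cascade components all lie close to 0 and uncoloured, and the largest changes are Grb14 upward (0.91) and Deptor (-1.04) and Fbxo32 (-1.06) downward.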

How the data were processed

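RNA-seq of 3 WT and 3 KO MEF libraries was analysed. The methods and the submitters' processing notes name fastp, HISAT2 2.0.5 and featureCounts 1.5.0-p3. The authors deposited raw counts and FPKM values for 55565 genes, and the FPKM were proportional to counts over exon length within a library. The tables' coordinates are on GRCm39 (Ensembl 106), although the notes name GRCm38. Promoter sequences are from RefSeq (GRCm38.p6), and the builds were not mixed.

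The 26898 genes whose FPKM was not 0 in all libraries were tested on the deposited counts with edgeR 4.0.16 (TMM, estimateDisp, glmQLFit with legacy set to FALSE, glmQLFTest, no covariates) in R 4.3.3, with Benjamini-Hochberg adjustment. A DEG had an adjusted p below 0.05 and an absolute log2 fold change above 1. Intervals are 95% and values after ± are SD over 3 libraries. Expressed genes had a mean of at least 1 CPM. The fit was tested on simulated KO and WT counts for 25831 genes: edgeR recovered 100 of 100 genes changed 2-fold and 100 of 100 changed 4-fold, with 13 false calls (the changed genes had means of at least 100 counts). Exact permutation of 3 against 3 libraries cannot give p below 0.1, so it was not used.

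Alternatives were DESeq2 1.42.0, limma 3.58.1 (voom, and log2 of FPKM plus a pseudocount of 1 or 0.1), the legacy edgeR fit, a test against a 2-fold change, RLE scaling, 2 gene filters, a replicate block and leaving out each library. A gene length offset (a loess curve for each library) was added once the values were known, after seeing the data. The members and lists were chosen with earlier results of these data known. One gene of the list of negative regulators is not reported here and was left out of that list's counts and median. From each list, called genes that were expressed and did not overlap between genotypes were named, up to 4 in each direction, and so were the 3 genes nearest to each member that was a DEG, the genes overlapping or next to a member, Mcm8 and 5 sex-linked genes. Lrp1 was named after its values were seen. Tables were read with Python 3.11.15 (pandas 2.3.3), and figures were drawn with matplotlib 3.10.9.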

Additional observations from a re-analysis of the deposited data

How the results depend on the processing

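Igfbp3, Igfbp4, Igfbp5 and Igfbp6 kept their direction and their call in 16 of 17 other settings, with log2 fold changes of 0.85 to 1.07, 1.00 to 1.39, 0.48 to 0.63 and 0.80 to 1.11. In the test against a 2-fold change none of the 9 members was called (0 higher), with an adjusted p of 0.303 for Igfbp4, and the DEGs numbered 135 higher and 37 lower in place of 464 and 178, since that test asks for more than a doubling. Leaving out 1 library gave 304 (without KO1) to 466 DEGs higher and 119 to 217 lower. With 1 library left out, 4 members were called higher each time and 0 to 1 lower, the latter being Igf1r without WT1. Igf1 changed sign without WT2, to -0.0046 (adjusted p = 0.991), and ran up to 0.1066 without KO3. The summed IGFBP ratio of 1.25 became 1.68 without Igfbp7 in the sum. Leaving out 1 library moved the median log2 fold change of the other ligands, receptors and carriers between 0.41 and 1.32, and that of the FOXO targets between -0.0663 and -0.00983. For both, the cause was not tested. Libraries of the same number did not deviate together (correlations of -0.0249, -0.0157 and 0.0374), and with the replicate block the DEGs numbered 370 higher and 137 lower, with 4 members higher and 0 lower. DESeq2 gave 357 and 130 DEGs, and gave Igfbp2 no adjusted p. At the depth of these libraries no difference in Igfbp2, with 7 or fewer counts in each library, was detectable.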
